A study of Homo sapiens with 12 samples.

Results

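The genes described here are the working parts of the YAP and TEAD pathway, the output end of Hippo signalling. They were chosen by name, from 10 listed symbols, with earlier results of these data known. Of the 10, 8 were measured among the 20595 genes of the counts table. The 8 include the coactivators YAP1 and WWTR1 (the gene of TAZ), and TEAD1, from the TEAD family of their DNA-binding partners. The others are the kinase LATS2, the scaffold proteins AJUBA and AMOTL2, and the YAP and TAZ targets CYR61 (now CCN1) and CRIM1. CTGF and ANKRD1, targets often used as readouts of YAP, were not analysed here. RNA came from A549 and H1792, established human lung adenocarcinoma cell lines that the study describes as MDM2-amplified, and each line stands for its background alone. Most of the study's text gives A549 as p53 wild type and H1792 as p53 mutant, although one of its sentences gives them the other way round. Cells of each line received the vehicle DMSO or 1 μM RG7112, a small molecule that keeps MDM2 from binding p53, for 48 h. There were 3 replicates in each of 4 groups, A549 with DMSO, A549 with RG7112, H1792 with DMSO and H1792 with RG7112. The column names of the table carry a lower dose than the sample labels, and the dose given here is that of the labels.

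In Hippo signalling, the kinases MST1 and MST2 (genes STK4 and STK3) with the adaptor SAV1 activate LATS1 and LATS2, whose cofactors are MOB1A and MOB1B. LATS kinases phosphorylate YAP and TAZ, which then stay in the cytoplasm or are degraded. Unphosphorylated YAP and TAZ enter the nucleus and bind TEAD factors, which carry them to promoters and enhancers of genes for growth, adhesion and matrix. Phosphorylation and localisation are steps that RNA levels do not measure.

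The 12 libraries held 2011916 to 6218825 counts each, and 3 counts stood for 0.669 to 1.02 CPM (counts scaled to library size with TMM factors) on average over the groups, a limit that covers counting error only. Nothing in the labels says that replicates came from separate cultures, so the p-values measure the spread between these samples, which may be technical. CDKN1A and MDM2, the p53 targets used to check the treatment, rose in A549 (log2 fold changes 3.58 and 2.99, edgeR adjusted p = 0.0252 and 0.0102), with CDKN1A at 190 to 203 CPM in RG7112 replicates 1 and 2 and at 942 CPM in replicate 3. The CDKN1A call was lost when any DMSO sample of A549 was left out (adjusted p = 0.0901, 0.096 and 0.0867 without replicates 1, 2 and 3), and the MDM2 call without DMSO replicate 2 (adjusted p = 0.0534). In H1792 their log2 fold changes were 0.15 and -0.05 (adjusted p = 0.882 and 0.928). The epithelial markers KRT8, KRT18, KRT19, EPCAM and CDH1 summed to 14000 to 23200 CPM in A549 and to 889 to 1760 CPM in H1792. The fibroblast list summed to 1.91 to 8.87 CPM in A549 and to 1110 to 1430 CPM in H1792, where COL1A1 and COL1A2 carried the sum and COL3A1, DCN and LUM had 0 to 8 counts per sample. The leukocyte sum was 34.4 to 122 CPM in A549, from CD14 and CD68, and 7.49 to 18.7 CPM in H1792, and the endothelial sum was at most 1.91 CPM. With RG7112 in H1792, the log2 fold changes were -1.04 for KRT18 (edgeR adjusted p = 0.00437), -0.54 for KRT8 (adjusted p = 0.00894), -0.59 for KRT19 (adjusted p = 0.0371) and 1.22 for EPCAM (adjusted p = 0.102). In A549, KRT19 rose (1.27, adjusted p = 0.00602), while KRT8, KRT18 and CDH1 did not pass. The part of these shifts in the results was not tested, and the identity of the H1792 samples was not checked beyond these markers, CDKN1A and MDM2, which bears on every H1792 value. Fold changes moved with the GC content of the gene, with Spearman's rho across genes of 0.256 in A549 (9941 genes) and -0.495 in H1792 (9165 genes), so GC-corrected responses are given for each member tested. Replicate 3 of A549 stood apart from replicates 1 and 2 under both treatments.

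TEAD factors bind the letters GGAATG. The promoters of the members were read for these letters and, for a match on the other strand, for the reverse complement CATTCC, since AMOTL2 and LATS2 are known both as brakes on YAP and as targets of it. RefSeq promoters (250 bases before and 50 after the start, build GRCh38.p14) were at hand for 5 of the 8 measured members, with 8 start sites. They were not at hand for CYR61, TEAD1 and CRIM1. The letters stood in 4 of the 8 promoters, at 1 start site each of 4 genes, and in 14% of all 35116 promoters of that length. Neither WWTR1 start site held them. The 4 promoters are printed 5′ to 3′ on the strand of the gene, with the letters in capitals. That of YAP1 (chr11:102110197-102110496, plus strand) has them 162 bases before the start, that of AMOTL2 (chr3:134374398-134374697, minus strand) has the reverse complement 69 bases before, that of LATS2 (chr13:21061537-21061836, minus strand) has them 10 bases after, and that of AJUBA (chr14:22976793-22977092, minus strand) has them 59 bases before. A match of letters describes the sequence and shows no binding.
YAP1: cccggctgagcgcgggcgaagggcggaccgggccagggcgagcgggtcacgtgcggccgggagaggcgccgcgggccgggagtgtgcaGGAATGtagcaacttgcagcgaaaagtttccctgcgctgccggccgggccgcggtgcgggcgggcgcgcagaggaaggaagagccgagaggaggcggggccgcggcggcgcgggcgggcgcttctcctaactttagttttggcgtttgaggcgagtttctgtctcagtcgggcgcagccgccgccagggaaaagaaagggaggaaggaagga
AMOTL2: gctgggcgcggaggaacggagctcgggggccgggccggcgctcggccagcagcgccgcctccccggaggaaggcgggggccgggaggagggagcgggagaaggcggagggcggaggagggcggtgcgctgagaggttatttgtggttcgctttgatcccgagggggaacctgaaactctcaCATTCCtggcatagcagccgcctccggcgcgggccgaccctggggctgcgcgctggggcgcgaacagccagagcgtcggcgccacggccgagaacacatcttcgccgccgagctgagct
LATS2: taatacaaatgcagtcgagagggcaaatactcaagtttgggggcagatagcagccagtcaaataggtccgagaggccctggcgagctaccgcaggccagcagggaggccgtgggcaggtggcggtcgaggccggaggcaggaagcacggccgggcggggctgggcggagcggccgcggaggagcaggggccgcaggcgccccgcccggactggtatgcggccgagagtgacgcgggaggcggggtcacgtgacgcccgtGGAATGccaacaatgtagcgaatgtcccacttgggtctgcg
AJUBA: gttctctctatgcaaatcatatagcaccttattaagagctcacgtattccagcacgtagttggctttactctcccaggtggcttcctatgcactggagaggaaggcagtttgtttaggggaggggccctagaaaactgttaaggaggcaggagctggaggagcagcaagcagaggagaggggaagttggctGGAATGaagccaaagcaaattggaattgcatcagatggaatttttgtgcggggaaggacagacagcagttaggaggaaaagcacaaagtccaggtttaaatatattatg

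The members differed widely in level. Per kilobase of transcript in A549 with DMSO, WWTR1 was highest at 27.0 ± 1.39 CPM per kb (SD, n = 3), followed by AMOTL2 (24.9 ± 7.65) and AJUBA (23.9 ± 0.0654), and each of these overlapped with its neighbour in that order. YAP1 (11.6 ± 2.28 CPM per kb) and TEAD1 (9.20 ± 2.31) overlapped with each other and lay below them. CYR61 (2.15 ± 0.967) and CRIM1 (1.82 ± 1.26) were lower again and overlapped, and LATS2 had no count. By their means, YAP1, TEAD1, CYR61, CRIM1 and LATS2 had the same order in H1792 with DMSO. There TEAD1 (2.69 ± 0.643 CPM per kb) and CYR61 (1.91 ± 1.31) overlapped. WWTR1 (16.9 ± 2.78 CPM per kb), AJUBA (16.3 ± 3.37) and AMOTL2 (12.6 ± 3.20) again lay above all of these, each overlapping with its neighbour. With RG7112, AMOTL2 led in A549 (38.5 ± 2.98 CPM per kb), above AJUBA (27.9 ± 1.36) and WWTR1 (20.6 ± 1.48), with no overlap among the 3. In H1792 with RG7112, AJUBA (23.1 ± 0.405) and WWTR1 (22.2 ± 1.23) overlapped at the top, and AMOTL2 (10.8 ± 6.63), YAP1 (9.65 ± 1.59) and TEAD1 (8.23 ± 1.37) overlapped below them. WWTR1 mRNA was the more abundant of the pair of coactivator messages in all 4 groups.

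**Figure D1:**
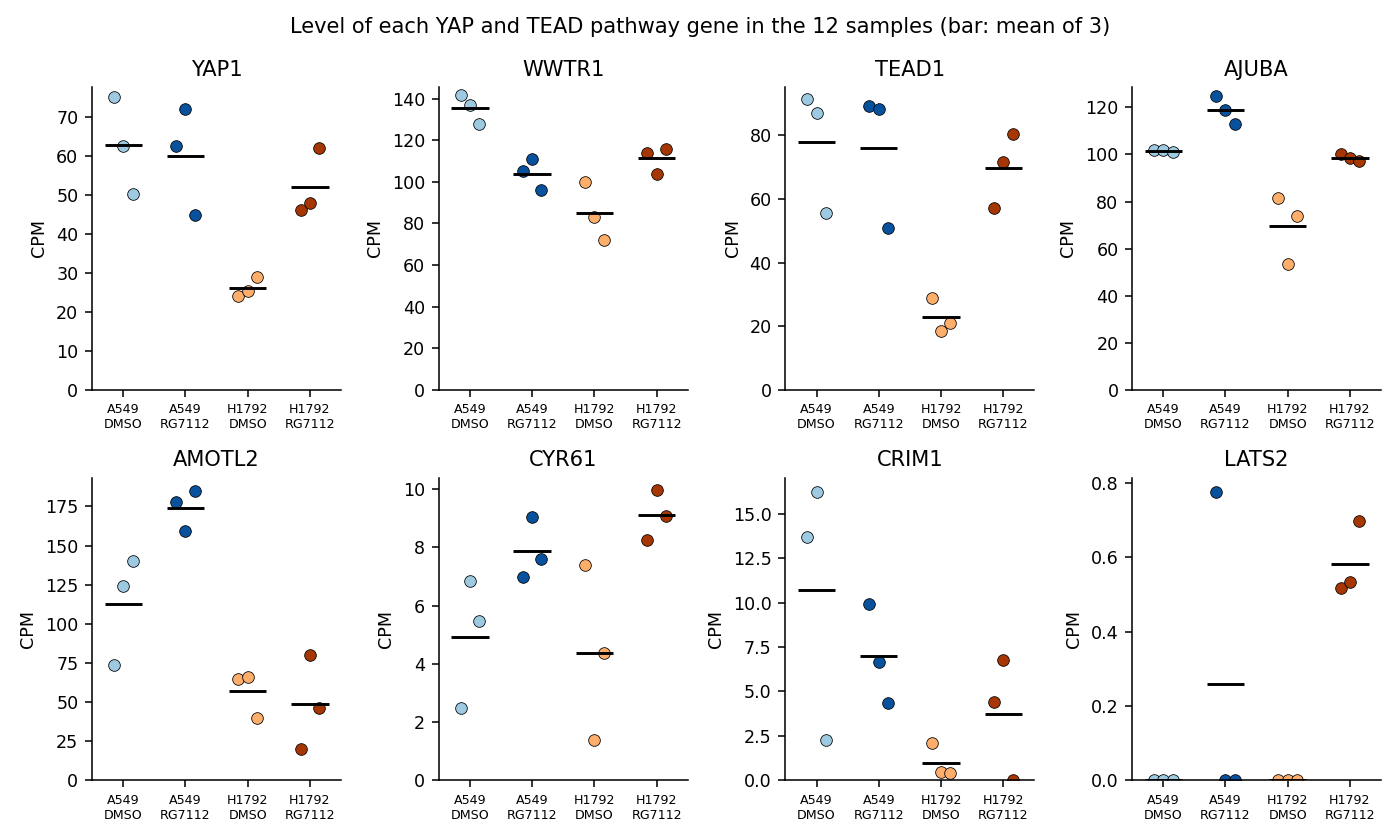
Level of each measured member in CPM (linear axis from 0) in the 3 samples of each of the 4 groups, with a bar at the mean. YAP1 and TEAD1 lie lowest in H1792 with DMSO, where every sample is below every sample of the other 3 groups, while LATS2 is below 1 CPM throughout.

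In H1792, the RNA of the factors TEAD1 and YAP1 rose with RG7112. TEAD1 and YAP1 were the 2 called members of the 6 tested, both higher. A call needs both an edgeR adjusted p under 0.05 and a log2 fold change beyond 1 or -1. YAP1 lay close to the fold threshold, and with the GC correction only TEAD1 was called. Among all 9914 genes tested in H1792, 14.6% were called, 10.3% higher and 4.34% lower. CPM did not overlap between treatments for 5 of the 6 tested members, and for 53.3% of all genes. The median log2 fold change of the 6 was 0.83, against 0.01 over all genes. Without a fold threshold 4 members passed, where 34.1% of all genes did. In bulk RNA, a change in the RNA of every cell and a change in the share of cells that express a gene cannot be told apart.

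TEAD1 (ENSG00000187079, chromosome 11, 12674591 to 12944483 on GRCh38) belongs to the factors that place YAP and TAZ on DNA. It stood at 28.9, 18.5 and 20.9 CPM in the H1792 DMSO samples and at 57.3, 71.7 and 80.3 CPM with RG7112. Every treated sample was above every control. The rise was 3.23-fold (log2 1.69, SE 0.23, 95% interval 1.14 to 2.24, edgeR adjusted p = 0.00439). It was called without each sample in turn (log2 1.52 to 1.91) and after correction for GC content (log2 1.26, adjusted p = 0.00791). TEAD1 transcripts have 41.3% GC, and the 797 tested genes within 1 percentage point of that had a median log2 fold change of 0.48, with 89.8% of them below TEAD1. The related TEAD2 had means of 34.4 CPM per kb in H1792 with DMSO and 28.6 with RG7112, against 2.69 and 8.23 for TEAD1. In H1792, TEAD2 (log2 -0.19, edgeR adjusted p = 0.528) and TEAD4 (-1.96, adjusted p = 0.288) did not pass. TEAD4 was uneven, with 3 to 196 counts in the DMSO samples.

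YAP1 (ENSG00000137693, chromosome 11, 102110461 to 102233423), the coactivator that LATS kinases restrain, stood at 24.0, 25.4 and 28.8 CPM in the H1792 DMSO samples and at 46.2, 48.0 and 61.9 CPM with RG7112. The groups did not overlap, and replicate 3 was the highest of each. The rise was 2.11-fold (log2 1.08, SE 0.18, 95% interval 0.66 to 1.5, edgeR adjusted p = 0.00643). It lay close to the fold threshold: without RG7112 replicate 3 the log2 fold change was 0.92 (adjusted p = 0.0246), and with the GC correction it was 0.74 (adjusted p = 0.0209). The 788 tested genes within 1 percentage point of its GC content (43.5%) had a median of 0.39, and 79.1% of them lay below YAP1.

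WWTR1 (ENSG00000018408, chromosome 3, 149517235 to 149736714), which encodes the YAP relative TAZ, stood at 99.7, 83.3 and 71.9 CPM in H1792 with DMSO and at 114, 104 and 116 CPM with RG7112. The treated samples were all above the controls, by less than for YAP1 or TEAD1. The log2 fold change of 0.46 (SE 0.14, 95% interval 0.14 to 0.79, edgeR adjusted p = 0.0393) was under the fold threshold, and its adjusted p ran from 0.0165 to 0.121 when single samples were left out. With the GC correction it was 0.02 (adjusted p = 0.935). WWTR1 has the lowest GC content of the members (40.9%), and 47.8% of the 806 genes within 1 percentage point lay below it, so its change was that of the middle of such genes.

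In A549, no member passed the call rule, and none of the 7 tested had an adjusted p under 0.05 with edgeR. At an unadjusted p under 0.05 there were 2, and DESeq2 and limma-trend called 0 as well. Of all 10739 genes tested in A549, 6.19% were called, 3.18% higher and 3.01% lower, and 8.38% had an adjusted p under 0.05 at any fold change. The median log2 fold change of the 7 was -0.04, against -0.01 over all genes. YAP1 stood at 75, 62.6 and 50.3 CPM with DMSO and at 62.6, 72.0 and 44.8 CPM with RG7112. TEAD1 stood at 91.5, 86.9 and 55.5 CPM with DMSO and at 89.3, 88.2 and 50.8 CPM with RG7112. For both genes the groups overlapped, and replicate 3 was the lowest sample of each group. The log2 fold change was -0.07 for YAP1 (95% interval -0.63 to 0.50, adjusted p = 0.897) and -0.04 for TEAD1 (95% interval -0.72 to 0.64, adjusted p = 0.958), and both were above 0 with the GC correction (0.07 and 0.15). The intervals exclude a doubling, a log2 fold change of 1, in either gene.

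WWTR1 in A549 stood at 142, 137 and 128 CPM with DMSO and at 105, 111 and 95.9 CPM with RG7112. The treated samples were all lower, the opposite order to H1792. The log2 fold change was -0.39 (SE 0.13, 95% interval -0.69 to -0.08), with an unadjusted edgeR p of 0.0214 and an adjusted p of 0.127, and -0.17 with the GC correction. CPM did not overlap between treatments for 4 of the 7 tested members (WWTR1 lower, AJUBA, AMOTL2 and CYR61 higher), and for 32.4% of all genes.

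**Figure D2:**
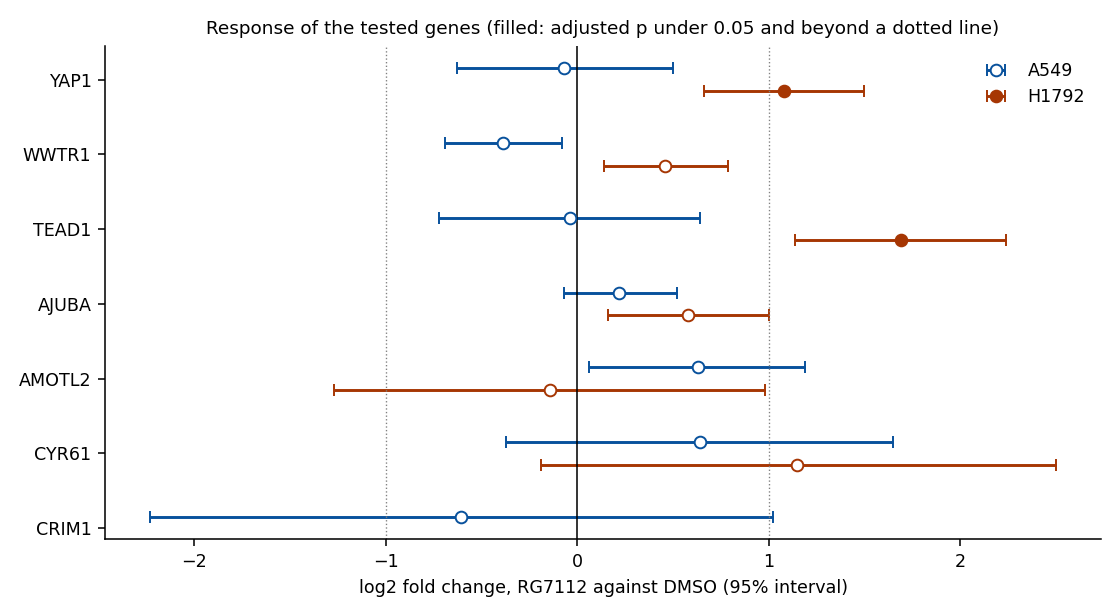
Log2 fold change of each tested member with RG7112 against DMSO in A549 and H1792 (points, with 95% intervals), with dotted lines at -1 and 1. TEAD1 (1.69) and YAP1 (1.08) in H1792 are the filled points, with an adjusted p under 0.05 beyond a dotted line, and CRIM1 was not tested in H1792.

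The difference between the cell lines was tested directly, as the response in A549 minus the response in H1792 over all 12 samples. It differed for 3 of 7 members at an adjusted p under 0.05, all with the lower response in A549. Of all 11666 genes tested, 21.8% differed, 10.4% with the higher response in A549 and 11.4% with the lower. TEAD1 differed by -1.66 on the log2 scale (SE 0.39, edgeR adjusted p = 0.0139), WWTR1 by -0.77 (SE 0.18, adjusted p = 0.0137) and YAP1 by -1.07 (SE 0.30, adjusted p = 0.0297). After the GC correction TEAD1 remained different (-1.08, adjusted p = 0.0349), while WWTR1 (-0.15, adjusted p = 0.581) and YAP1 (-0.63, adjusted p = 0.104) did not pass. The YAP1 difference missed the threshold without A549 DMSO replicate 1 (-0.97, adjusted p = 0.0658) or 2 (-1.11, adjusted p = 0.0562), H1792 DMSO replicate 1 (-1.02, adjusted p = 0.0613) or 2 (-1.06, adjusted p = 0.0636), or H1792 RG7112 replicate 3 (-0.98, adjusted p = 0.0675). The other 4 members did not pass, with differences of -0.44 for CYR61 (95% interval -2.04 to 1.15), 0.85 for AMOTL2 (-0.40 to 2.10), -0.28 for AJUBA (-0.72 to 0.15) and -2.51 for CRIM1 (-5.86 to 0.83).

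**Figure D3:**
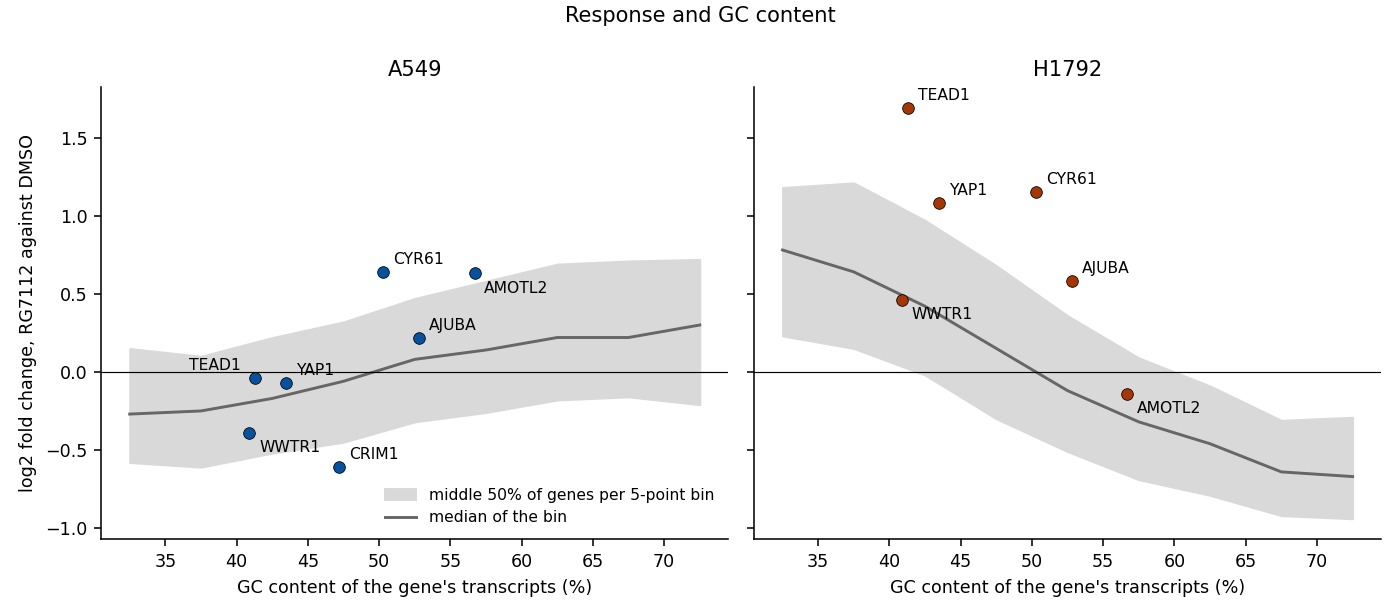
Log2 fold change with RG7112 against DMSO (vertical axis) by GC content of the transcripts in percent (horizontal axis), with the median of all tested genes in bins of GC content (line), the range between their quartiles (grey) and the members (points). In H1792 TEAD1, YAP1, CYR61 and AJUBA lie above the grey band and WWTR1 near the line of medians.

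Of the proteins that act on LATS and YAP, AJUBA (ENSG00000129474, chromosome 14, 22971174 to 22982642), a LIM-domain scaffold that binds LATS kinases and limits their activity, varied little between the A549 replicates. It stood at 102, 102 and 101 CPM in A549 with DMSO and at 125, 119 and 113 CPM with RG7112. In H1792 it stood at 81.4, 53.5 and 73.7 CPM with DMSO and at 100, 98.4 and 97.1 CPM with RG7112. Treated samples were above controls in both lines. The log2 fold change was 0.58 in H1792 (SE 0.17, edgeR adjusted p = 0.0431, and 0.033 to 0.108 without single samples), which is under the fold threshold, and 0.22 in A549 (SE 0.13, adjusted p = 0.337, and 0.16 with the GC correction). The GC correction gave 0.74 in H1792 (adjusted p = 0.0275), where 83.3% of the 556 genes of like GC content lay below AJUBA. A protein-coding gene, AL132780.3, overlaps AJUBA on the same strand, so counts of reads that fit both are estimates.

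AMOTL2 (ENSG00000114019, chromosome 3, 134355874 to 134375479), a junction protein that holds YAP outside the nucleus and is itself a YAP target, varied more between replicates. It stood at 73.7, 124 and 140 CPM in A549 with DMSO and at 178, 159 and 185 CPM with RG7112, without overlap. In H1792 it stood at 64.5, 65.8 and 40.1 CPM with DMSO and at 20.1, 79.9 and 45.9 CPM with RG7112, so the treated samples enclosed the controls. The log2 fold change in A549 was 0.63 (SE 0.24, 95% interval 0.06 to 1.19, edgeR adjusted p = 0.165), and 0.49 with the GC correction. That in H1792 was -0.14 (95% interval -1.27 to 0.98, adjusted p = 0.839), and its sign turned with the GC correction (0.23), with scaling by library size alone (0.13) and without RG7112 replicate 1 (0.22).

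LATS2 (ENSG00000150457, chromosome 13, 20973032 to 21061547), one of the kinases that phosphorylate YAP, was at the edge of detection. It had 0 counts in every DMSO sample of both lines, which allows up to 0.732 CPM in A549 and 1.02 CPM in H1792 on average. With RG7112 it had 2, 3 and 3 counts in H1792 and 5, 0 and 0 in A549. The groups were at or near the limit of 3 counts, so no fold was computed. LATS1, the other kinase of the pair, is described with the further pathway genes.

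CYR61 (ENSG00000142871, chromosome 1, 85580761 to 85583962), a secreted matrix protein and one of the best-known YAP targets, was measured with only 6 to 56 counts per sample. In A549 it stood at 2.50, 6.83 and 5.48 CPM with DMSO and at 6.97, 9.06 and 7.61 CPM with RG7112. In H1792 it stood at 7.40, 1.38 and 4.36 CPM with DMSO and at 8.27, 9.96 and 9.08 CPM with RG7112. In both lines the lowest treated sample was just above the highest control. The log2 fold change was 0.64 in A549 (SE 0.43, 95% interval -0.37 to 1.65, edgeR adjusted p = 0.428) and 1.15 in H1792 (SE 0.56, 95% interval -0.19 to 2.50, adjusted p = 0.158). With the GC correction the values were 0.62 and 1.18. Neither passed the test, and the intervals leave room for no change and for a rise of more than 1 on the log2 scale. Leaving out single samples moved the value from 0.33 to 0.95 in A549 and from 0.66 to 1.82 in H1792. The H1792 DMSO samples held 21, 6 and 10 counts, and the lowest value came without replicate 2 and the highest without replicate 1.

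CRIM1 (ENSG00000150938, chromosome 2, 36355926 to 36551135), a membrane protein with cysteine-rich repeats, stood at 13.7, 16.2 and 2.24 CPM in A549 with DMSO and at 9.92, 6.67 and 4.35 CPM with RG7112. The groups overlapped (log2 fold change -0.61, SE 0.69, edgeR adjusted p = 0.652, and -0.56 with the GC correction), with replicate 3 lowest in both. In H1792 the counts were 6, 2 and 1 with DMSO and 17, 38 and 0 with RG7112, too few for the filter on low counts. CRIM1 had the widest spread of the members tested in A549, and FEZ2, on the opposite strand, overlaps it.

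Replicate 3 of A549 moved unevenly with the members. The mean of replicates 1 and 2 minus replicate 3, on the scale of log2(CPM + 1), was 0.67 with DMSO and 0.79 with RG7112 for TEAD1, and 0.44 and 0.57 for YAP1. It was 2.30 and 0.78 for CRIM1 and -0.54 and -0.14 for AMOTL2, and within 0.31 of 0 in both treatments for CYR61, WWTR1 and AJUBA. With replicate 3 of both treatments left out, the number of members called stayed at 0 in A549 and at 3 for the difference between lines.

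In DMSO, the question was how the lines differ before treatment. A549 held more RNA of TEAD1, YAP1 and AMOTL2. TEAD1 was 3.55-fold (log2 1.83, SE 0.28, edgeR adjusted p = 0.00195), YAP1 2.49-fold (log2 1.32, SE 0.21, adjusted p = 0.00216) and AMOTL2 2.04-fold (log2 1.03, SE 0.28, adjusted p = 0.0215) above H1792. These were the 3 called members of the 6 tested. Of all 10330 genes tested between the lines, 35.5% were called, 20.6% higher in A549 and 14.8% lower. WWTR1 (log2 0.72, adjusted p = 0.00613) and AJUBA (log2 0.60, adjusted p = 0.0278) were also higher, under the fold threshold, so that 5 of 6 members passed at any fold change, where 49.7% of all genes did. CYR61 did not pass (log2 0.27, 95% interval -1.29 to 1.83, adjusted p = 0.754). CPM did not overlap between the lines for those 5 members, nor for CRIM1, which was not tested, while 61.1% of all genes tested did not overlap. The AMOTL2 call was lost without A549 DMSO replicate 2 (log2 0.95, adjusted p = 0.068), without A549 DMSO replicate 3 (0.86, adjusted p = 0.0561) and without H1792 DMSO replicate 3 (0.82, adjusted p = 0.0666). The GC correction changed none of the 3 calls. This comparison shares its DMSO samples with the responses in both lines, so a low DMSO value in H1792 enters both its low level and its rise. Side by side, TEAD1 had means of 78.0 ± 19.6 CPM in A549 with DMSO, 22.8 ± 5.45 CPM in H1792 with DMSO and 69.8 ± 11.6 CPM in H1792 with RG7112 (SD, n = 3). YAP1 had 62.6 ± 12.3, 26.0 ± 2.47 and 52.1 ± 8.58 CPM in the same groups. For both genes the treated H1792 samples overlapped with the untreated A549 samples. Outside the members, TEAD2 (log2 -0.34, edgeR adjusted p = 0.556) and TEAD4 (-2.09, adjusted p = 0.131) did not pass between the lines in DMSO.

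Of 20 further Hippo pathway genes, 19 were in the table. In H1792, 5 of 16 tested were called, all higher: LIMD1, LATS1, MOB1A, TAOK1 and SAV1, against a share of 14.6% called over all genes. LATS1 and its cofactor MOB1A belong to the kinase step itself, TAOK1 activates MST kinases, SAV1 is the MST adaptor, and LIMD1, a LIM protein related to AJUBA, binds LATS. The median of the 16 was 0.30, against 0.01 for all genes. MOB1A stood at 9.87, 3.46 and 6.54 CPM with DMSO and at 26.9, 30.6 and 31.0 CPM with RG7112 (log2 fold change 2.25, SE 0.38, edgeR adjusted p = 0.00709). LATS1 stood at 4.93, 2.08 and 2.18 CPM with DMSO and at 9.82, 17.6 and 18.6 CPM with RG7112 (2.40, SE 0.46, adjusted p = 0.0101). Neither gene's groups overlapped. LIMD1 had 1, 2 and 2 counts with DMSO and 38, 88 and 66 with RG7112, a ratio of 26.4 after scaling, with an exact counting interval of 11.1 to 82.1. TAOK1 (log2 fold change 2.00, adjusted p = 0.0162) and SAV1 (1.60, adjusted p = 0.0268) had 3 to 15 counts in the DMSO samples.

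NF2 (Merlin), the membrane protein that recruits LATS for activation, was lower in H1792, at 87.7, 111 and 82.0 CPM with DMSO and 56.3, 48.0 and 34.5 CPM with RG7112. Its groups did not overlap, and its log2 fold change of -0.94 (SE 0.20, edgeR adjusted p = 0.0136) was just under the fold threshold. The transcripts of LATS1 (39.7% GC), MOB1A (37.3%), TAOK1 (39.5%) and SAV1 (42.8%) are low in GC content and those of NF2 (56.0%) are not. In H1792 the median log2 fold change was 0.64 at 35 to 40% GC, 0.42 at 40 to 45% and -0.32 at 55 to 60%. The 4 rises and the fall of NF2 thus had the sign of genes of like GC content. With the GC correction 4 of the 16 were called, without SAV1 (1.22, adjusted p = 0.0738). SAV1 was also lost without DMSO replicate 1 (1.32, adjusted p = 0.058) or 3 (1.62, adjusted p = 0.0698) and without RG7112 replicate 2 (1.39, adjusted p = 0.104) or 3 (1.60, adjusted p = 0.0776). TAOK1 was lost without DMSO replicate 3 (1.85, adjusted p = 0.0527) and without RG7112 replicate 2 (1.97, adjusted p = 0.0597) or 3 (1.76, adjusted p = 0.0639). Leaving out RG7112 replicate 2 or 3 thus left 3 called, while 7 were called without RG7112 replicate 1. MAP4K4, WWC1 and TEAD2, the uncalled genes of highest mean CPM over all 12 samples, had log2 fold changes of 0.20, 0.33 and -0.19.

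In A549, 1 of 17 further Hippo genes was called, against 6.19% of all genes. AMOTL1, a relative of AMOTL2 that also binds YAP, stood at 8.43, 6.66 and 3.24 CPM with DMSO and at 23.7, 21.9 and 25.3 CPM with RG7112. The groups lay far apart (log2 fold change 1.95, SE 0.37, edgeR adjusted p = 0.0207). The call was lost without DMSO replicate 2 (2.03, adjusted p = 0.0831) and without RG7112 replicate 1 (1.95, adjusted p = 0.0751), 2 (2.01, adjusted p = 0.0644) or 3 (1.91, adjusted p = 0.0535). It was also lost with all 12 samples in one fit (1.96, adjusted p = 0.231). In H1792 AMOTL1 counts were uneven, from 2 to 100 with DMSO and from 20 to 163 with RG7112. In A549, MAP4K4, WWC1 and TEAD2 had log2 fold changes of 0.31, 0.23 and 0.27, and none passed. STK4, the gene of MST1, was lower in A549 without overlap but did not pass (log2 fold change -1.92, edgeR adjusted p = 0.0867). Of the 17 genes tested in A549, 9 had a log2 fold change above 0 and 8 below. DESeq2 called 2 further Hippo genes in A549, 1 higher and 1 lower. Between the lines in DMSO, 7 of 16 were called, where 35.5% of all genes were. Of these, 6 were higher in A549 (MOB1A, WWC1, TAOK1, LIMD1, WTIP and VGLL4) and MAP4K4 was lower, where 20.6% of all genes were called higher and 14.8% lower.

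**Figure D4:**
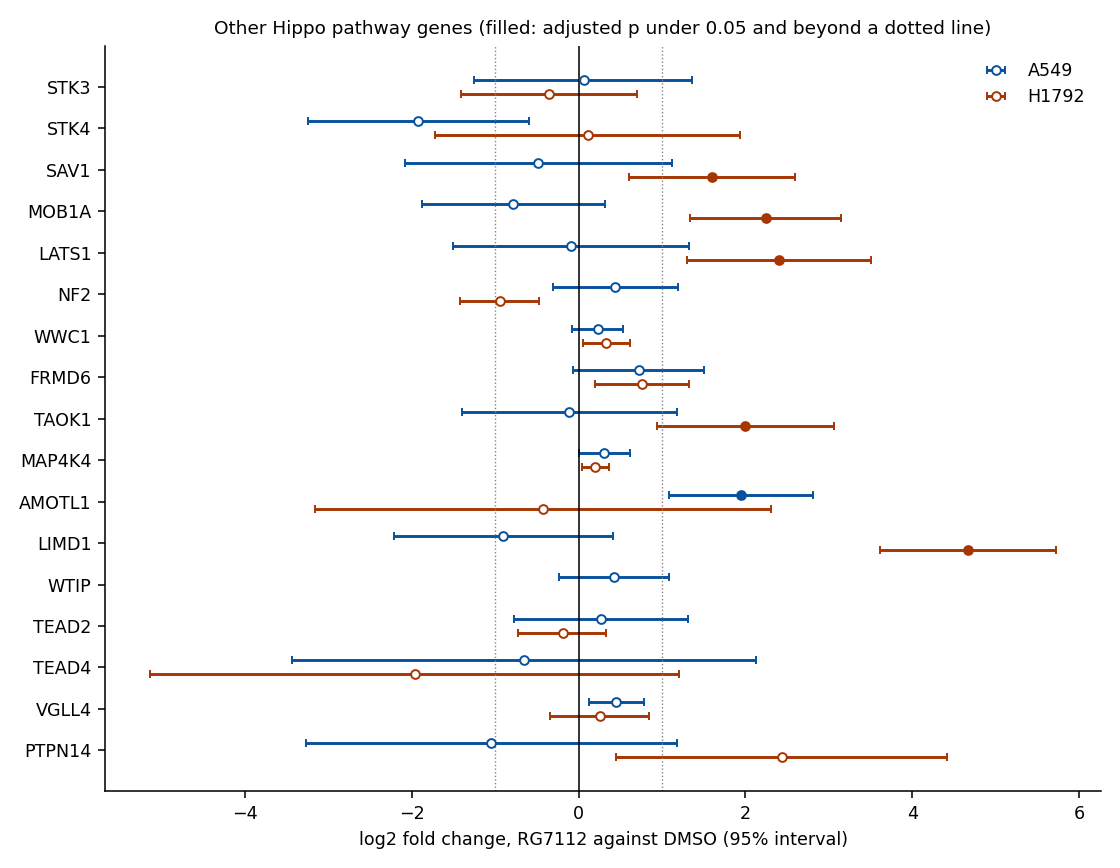
Log2 fold change with RG7112 against DMSO (points, with 95% intervals) of the further Hippo pathway genes tested in A549 or H1792, with dotted lines at -1 and 1. The filled points, with an adjusted p under 0.05 beyond a dotted line, are SAV1, MOB1A, LATS1, TAOK1 and LIMD1 in H1792 and AMOTL1 in A549.

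Of 16 further YAP and TAZ target genes listed, 15 were in the table. PTPN14 was on both this list and that of further Hippo genes, and it is counted in both. In A549, 1 of 13 tested was called, where 6.19% of all genes were, and in H1792 1 of 12, where 14.6% of all genes were. The call in A549 was IGFBP3, a secreted binding protein of insulin-like growth factors, at 13.7, 12.1 and 24.7 CPM with DMSO and 53.9, 72.5 and 65.2 CPM with RG7112 (log2 fold change 1.92, SE 0.31, edgeR adjusted p = 0.0124). It was lost without DMSO replicate 1 (1.79, adjusted p = 0.0619) or 2 (1.72, adjusted p = 0.0558) and without RG7112 replicate 2 (1.82, adjusted p = 0.0511). What drove the rise of IGFBP3 in A549 was not tested, and the p53 targets CDKN1A and MDM2 rose in A549 too. In H1792 IGFBP3 had 8 counts at most. The call in H1792 was ARHGEF17, an exchange factor for RhoA, at 29.2, 28.4 and 40.5 CPM with DMSO and 18.3, 8.01 and 10.2 CPM with RG7112, a fall (log2 fold change -1.36, SE 0.35, adjusted p = 0.0251). That call was lost with the GC correction (-0.78, adjusted p = 0.106), without DMSO replicate 2 (-1.48, adjusted p = 0.0504) or 3 (-1.17, adjusted p = 0.0761), and without RG7112 replicate 2 (-1.13, adjusted p = 0.0702) or 3 (-1.26, adjusted p = 0.0845).

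The 3 uncalled targets of highest mean CPM over all 12 samples were MYOF, AXL and CCDC80. MYOF, a membrane repair protein, was higher in both lines, with log2 fold changes of 0.75 in A549 (edgeR adjusted p = 0.0122) and 0.32 in H1792 (adjusted p = 0.0126). CCDC80, a matrix protein, was lower in both, with -0.64 (adjusted p = 0.0246) and -0.33 (adjusted p = 0.0159). Without single samples, the adjusted p of MYOF reached 0.0641 in A549 and 0.0506 in H1792. That of CCDC80 reached 0.104 in A549 and 0.0543 in H1792. The receptor tyrosine kinase AXL stood at 302, 276 and 255 CPM in H1792 with DMSO and at 468, 515 and 460 CPM with RG7112, well apart (0.87, SE 0.09, adjusted p = 0.00282). In A549 AXL had a log2 fold change of -0.08 (adjusted p = 0.853). At any fold change, 6 of 12 targets passed in H1792, 4 higher and 2 lower, where 34.1% of all genes did. In A549 3 of 13 passed, 2 higher and 1 lower, where 8.38% of all genes did. The median over the targets was 0.27 in H1792 and 0.37 in A549. Between the lines in DMSO, 5 of 13 were called, a share near the 35.5% of all genes, with IGFBP3, MYOF and ASAP1 higher in A549 and GADD45A and RBMS3 lower.

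The genes whose pattern was most like that of CYR61 were ATP11A, HYAL2 and SQSTM1, with Pearson's r of 0.924, 0.91 and 0.898. Likeness was measured over the 12 samples after the mean of each line was subtracted, among 7438 genes with a mean of at least 10 CPM. All samples share this subtraction and the treatment, so the coefficients describe a pattern and carry no p.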

How the data were processed

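The authors enriched poly-A RNA and, per the labels, sequenced paired 38 bp reads, whereas the study's methods give longer ones. They estimated transcript abundance with kallisto 0.45.0 on Ensembl GRCh38.95 and summed it to genes with biomaRt. The authors deposited estimated counts (expected counts) as whole numbers, not normalized, and these were used as they stood. The strand setting of the counting is not given in the sources used here.

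Samples were grouped by the labelled cell line and treatment. Genes were filtered with filterByExpr (minimum count 10, minimum total 15), scaled by TMM and tested with edgeR 4.0.16 (quasi-likelihood, robust, in R 4.3.3) with Benjamini-Hochberg adjustment over all genes tested. The difference between lines was an interaction over all 12 samples, called at an adjusted p under 0.05 with no fold threshold. GC content, lengths and positions came from GENCODE v29, which held 18011 of the 20595 genes. Intervals are 95%. The procedure was also run on simulated counts, with less spread between replicates than here, larger folds than those of most members and no GC trend. That run checks the code and not the error rates in these data.

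Named were all members, the further Hippo and target genes called in either line, the 3 uncalled ones of each list with the highest mean CPM over all samples, CDKN1A and MDM2, and the 3 genes most like CYR61. NF2, STK4, TEAD4 and the genes called between the lines were added after their values were seen. The members and lists were chosen with earlier results of these data known. Alternatives were DESeq2 1.42.0, limma-trend (limma 3.58.1, prior count 2), RLE and library-size scaling, other filters and thresholds, a GC correction (loess per sample, span 0.5), a block for the replicate number, a single fit over all 12 samples, and leaving out samples.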

Additional observations from a re-analysis of the deposited data

Results flagged for a closer look

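The response to RG7112 differed between A549 and H1792 for 3 of 7 members, 4 of 17 further Hippo genes and 3 of 14 targets, where 21.8% of all genes did, by a test of the difference itself (edgeR interaction, adjusted p under 0.05). Each value is the log2 response in A549 minus that in H1792. Among the members these were YAP1 (-1.07, adjusted p = 0.0297), WWTR1 (-0.77, adjusted p = 0.0137) and TEAD1 (-1.66, adjusted p = 0.0139). With the GC correction only TEAD1 passed. The YAP1 difference also missed the threshold in some fits without single samples (adjusted p up to 0.0675).

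Among the further Hippo genes they were MOB1A (-2.96, adjusted p = 0.0103, from -0.78 in A549 and 2.25 in H1792), LATS1 (-2.41, adjusted p = 0.0498, from -0.09 and 2.40) and LIMD1 (-5.49, adjusted p = 0.00161, with 5 counts in all in the DMSO samples of H1792). NF2 differed the other way (1.46, adjusted p = 0.0296, from 0.44 and -0.94). The LATS1 difference lost its call in 14 of 21 alternatives, with the GC correction at -1.65 (adjusted p = 0.18), and NF2 lost it with the GC correction (1.03, adjusted p = 0.078). NF2 also lost it without A549 DMSO replicate 1 or 2, A549 RG7112 replicate 3, H1792 DMSO replicate 2, or H1792 RG7112 replicate 2 or 3 (1.23 to 1.45, adjusted p = 0.0612 to 0.0754).

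Among the targets they were MYOF (0.50, adjusted p = 0.0197), AXL (-0.87, adjusted p = 0.0224) and ARHGEF17 (1.96, adjusted p = 0.0183), and ARHGEF17 did not pass with the GC correction (1.17, adjusted p = 0.0703). It also missed the threshold without H1792 RG7112 replicate 3 (1.81, adjusted p = 0.0525). AXL missed it without A549 DMSO replicate 1 or 2, H1792 DMSO replicate 3 or H1792 RG7112 replicate 2 (-0.87 to -0.79, adjusted p = 0.0542 to 0.056). MYOF missed it without A549 DMSO replicate 1, A549 RG7112 replicate 1 or 2, H1792 DMSO replicate 2, or H1792 RG7112 replicate 2 or 3 (0.41 to 0.47, adjusted p = 0.0523 to 0.0761). With scaling by library size alone the MYOF difference was 0.10 (adjusted p = 0.712).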

How the results depend on the processing

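The count of members called was 2 in H1792, 3 for the difference and 3 in DMSO. In H1792 it became 1 with the GC correction, 1 with the replicate block and GC correction together, 4 without a fold threshold, and 1 to 2 without single samples. For the difference it became 1 with the GC correction, 1 with the replicate block and GC correction together, and 0 at an adjusted p under 0.01. It was 2 to 3 without single samples. In DMSO it became 5 without a fold threshold and was 2 to 4 without single samples. In A549 it was 0 under every alternative run. Over all genes, an adjusted p under 0.01 left 279 calls of 665 in A549, 722 of 1450 in H1792 and 848 of 2539 for the difference. The H1792 count was 3384 without a fold threshold and 451 with the replicate block and GC correction, the difference count 1596 with both, and the DMSO count 2126 of 3665 when every sample needed 10 counts, which tests fewer genes. Leaving out single samples gave 310 to 526 calls in A549 (310 without DMSO replicate 2, 318 without DMSO replicate 1, 407 and 398 without RG7112 replicates 1 and 2), 920 to 1642 in H1792 (920 and 953 without RG7112 replicates 2 and 3) and 1584 to 2978 for the difference (1584 without A549 DMSO replicate 1, 1683 without H1792 DMSO replicate 2, 1608 and 1623 without H1792 RG7112 replicates 2 and 3). Of the further Hippo genes in H1792, 5 were called, against 1 with 10 counts in every sample, 1 with the replicate block and GC correction, 2 at an adjusted p under 0.01 and 6 with DESeq2. Of the targets, 1 was called in each line, against 4 in A549 and 2 in H1792 with DESeq2. The cause of these changes was not tested.

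Same-numbered samples did not deviate together throughout (r of 0.115, 0.0609 and 0.273 in A549 and -0.0238, -0.00181 and 0.00346 in H1792), so the replicate number was not taken as a pairing. Across different numbers in A549, r was 0.136 and 0.102 between replicates 1 and 2, and -0.209 to -0.132 between replicate 3 and the others. Replicate 3 thus deviated alike under both treatments, which the main fits left in the spread between samples. The replicate block gave 612, 995, 2357 and 3427 calls in A549, H1792, the difference and DMSO, and 0, 2, 3 and 2 called members. Scaling by library size alone moved the median of all genes to 0.27 in H1792, 0.29 in DMSO and -0.37 for the difference, and the share of higher calls from 70.3% to 86.1%, from 58.1% to 68.8% and from 47.7% to 23%.

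Of 465 alternative values of the members, 430 kept direction and call, 18 lost the call and 17 turned sign. The 465 belong to 26 values, most of them uncalled in the main fits. An uncalled value was counted as kept when it stayed uncalled with the same sign, so the 18 losses all fell on called values. No value that turned sign was called. In A549, YAP1 became 0.07 with the GC correction and 0.07 with the replicate block as well (without single samples -0.21 to 0.11), and TEAD1 became 0.15, 0.16 and, without replicate 3, 0.00 (-0.23 to 0.19). AMOTL2 in H1792 became 0.13 with library size alone, 0.23 with the GC correction and 0.07 with the replicate block as well (-0.70 to 0.22). CYR61 ran from -0.22 to 0.90 in DMSO and from -1.10 to 0.01 for the difference. LATS1 in A549 became 0.05 with limma-trend, 0.01 with the replicate block, 0.24 with the GC correction and 0.24 with both (-0.45 to 0.58). TEAD2 became -0.25 in A549 without replicate 3 (-0.11 to 0.51), and 0.06, 0.23 and 0.21 in H1792 with library size alone, the GC correction and both block and correction (-0.33 to 0.00). MDM2 in H1792 became 0.22 with library size alone, 0.03 with 10 counts in every sample, 0.02 with limma-trend and 0.01 with the replicate block (-0.33 to 0.23). CDKN1A in H1792 ran from -0.31 to 0.99 and AXL in A549 from -0.27 to 0.04. The overlap of CPM between groups, the LIMD1 ratio and the differences of A549 replicate 3 were taken outside the fits and carry no p. Low counts limit the values of LATS2, CRIM1, CYR61 and LIMD1.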
